A study of Mus musculus with 12 samples.

Results

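The 10 genes described here encode Fc receptors, Fc receptor-like proteins and the signalling chain they share: Fcgr1, Fcgr2b, Fcgr3, Fcgr4, Fcer1g, Fcer2a, Fcmr, Fcrla, Fcrl1 and Fcrl5. They were taken by gene symbol, and all 10 were found among the 28188 symbols of the deposited count table. RNA was sequenced from poly(A)-selected libraries of isolated splenic dendritic cells and B cells of mice aged 12 weeks. There were 4 groups of 3 libraries: NOD.Idd2 dendritic cells, NOD dendritic cells, NOD.Idd2 B cells and NOD B cells. NOD mice develop autoimmune diabetes spontaneously and served as the control strain. NOD.Idd2 mice are NOD mice that carry the Idd2 diabetes locus of B10 origin, and no treatment is given in the labels for either strain. Whether libraries of a group came from separate animals or from pools is not given, so each p-value reflects only library-to-library spread, which may be technical.

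Fc receptors bind the constant part of antibodies and so link immune complexes to the cells that carry them. Activating IgG receptors signal through an ITAM, a tyrosine motif that recruits the kinase Syk, which in mouse is carried by the separate gamma chain encoded by Fcer1g. The inhibitory receptor Fcgr2b carries an ITIM in its own tail and recruits the lipid phosphatase SHIP1, which dampens signals from activating Fc receptors and from the B cell antigen receptor. B cells use Fcgr2b as their main IgG receptor, whereas dendritic cells carry inhibitory and activating receptors together, and the balance between them influences how dendritic cells respond to immune complexes. Most of the remaining genes are known from B cells: Fcer2a encodes CD23, the low-affinity IgE receptor, Fcmr the IgM receptor, Fcrla an intracellular protein of the family, and Fcrl1 and Fcrl5 surface proteins that modulate antigen receptor signalling.

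Levels are given as CPM, counts scaled to a common library size with TMM factors over the 12 libraries. Levels of different genes are compared only as CPM per kb of exon length. The libraries held 8663421 to 44632276 counts, and replicate 3 of the NOD.Idd2 dendritic cells was the shallowest. Libraries of the same group always differed by more than sampling noise. The 4 B cell markers Cd79a, Cd79b, Ms4a1 and Pax5 summed to 23.1 to 56.3 CPM in dendritic cell libraries and to 7095 to 7683 CPM in B cell libraries, and 6 dendritic cell markers to 3622 to 3973 and 9.20 to 11.1 CPM. Xist, the RNA that coats an inactivated X, was at 0.0405 to 0.154 CPM in dendritic cells and at 1560 to 2103 CPM in B cells, and the Y-linked Ddx3y was at 235 to 306 CPM in dendritic cells and had 0 counts in every B cell library. A difference between dendritic cells and B cells therefore cannot be told apart from a difference between male and female mice. The same holds for a strain effect that differs between the cell types.

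Fcgr2b and Fcgr3 lie close together on chromosome 1, at 170958617 to 170976547 and at 171051174 to 171064935 on the minus strand of GRCm38, and their coding sequences are 86.7% identical over 782 aligned bases. The longest identical run is 129 bases. The following 150 bases of coding sequence, from exon 4 of each gene in the GENCODE reference transcripts (C57BL/6J), are shown as an example of the near-identical sequence that reads of the inhibitory and the activating receptor can share; the longest run lies beside this window and spans exons 3 and 4. Capitals mark the 2 bases that differ.
Fcgr2b, chr1:170966523-170966672, minus strand: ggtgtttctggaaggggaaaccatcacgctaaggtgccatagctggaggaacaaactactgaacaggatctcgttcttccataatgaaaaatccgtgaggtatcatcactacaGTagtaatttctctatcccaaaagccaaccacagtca
Fcgr3, chr1:171054016-171054165, minus strand: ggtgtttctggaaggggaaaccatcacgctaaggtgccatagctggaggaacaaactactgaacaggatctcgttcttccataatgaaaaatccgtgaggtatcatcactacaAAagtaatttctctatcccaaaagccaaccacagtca
Of the 1298 stretches of 50 bases in the Fcgr3 transcript, 166 occur in a transcript of Fcgr2b, which is 12.8%. Fcgr1, Fcgr4, Fcer1g, Fcmr, Fcrla, Fcrl1 and Fcrl5 shared 0 such stretches with any other gene. Fcer2a shared 38 of 2193 with other genes. Fcgr2b shared 7.44% of its stretches, 166 of them with Fcgr3 and others with genes that include Gm4117, Gm33843 and Pou2f2. How the authors' counting treated shared reads is not given in the sources used here, so the values of Fcgr3 are uncertain wherever Fcgr2b is far more abundant.

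The inhibitory receptor gene Fcgr2b was higher in NOD.Idd2 than in NOD dendritic cells. It was at 78.1, 84.3 and 69.1 CPM in NOD.Idd2, against 50.1, 44.1 and 51.8 CPM in NOD. All NOD.Idd2 libraries lay above all NOD libraries. The log2 fold change was 0.67 (SE 0.07), a 1.60-fold rise, with adjusted p = 0.000676 (edgeR quasi-likelihood test, Benjamini-Hochberg over 14441 genes). Leaving out any of the 6 libraries gave log2 changes of 0.60 to 0.72 and adjusted p of 0.000582 to 0.00970. Fcgr2b was the 1 of 10 members called in dendritic cells, where 1.29% of all genes tested were called in either direction and 0.665% as higher. An unadjusted p under 0.05 was found for 4 of 10 members (Fcer2a, Fcgr2b, Fcgr3 and Fcrl1) and for 11.3% of all genes.

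In B cells Fcgr2b did not differ detectably between the strains. Its level was 303, 332 and 310.0 CPM in NOD.Idd2 and 318, 327 and 319 CPM in NOD, so the groups overlapped. The log2 fold change was -0.02 (SE 0.05, adjusted p = 0.993, edgeR). Of the 9 members tested in B cells 0 were called with edgeR, where 0.16% of all 15011 genes tested were called. An unadjusted p under 0.05 was found for 0 of these 9 members and 6.40% of all genes. DESeq2 called 0 members and 122 genes in all. With same-numbered libraries as a block 1.04% of genes were called and 0 members. The strain effect on Fcgr2b was larger in dendritic cells than in B cells by 0.67 on the log2 scale (SE 0.10). Cell type and sex cannot be told apart in this difference. It had an adjusted p = 0.0232 for the interaction in edgeR, where 0.109% of 16588 genes were called. This call was lost on leaving out NOD.Idd2 dendritic cell replicate 1 (adjusted p = 0.105) or 2 (0.0687), NOD.Idd2 B cell replicate 1 (0.0648), or NOD B cell replicate 1 (0.0592) or 2 (0.0640), with log2 differences of 0.62 to 0.74 over the 12 libraries left out in turn.

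**Figure D1:**
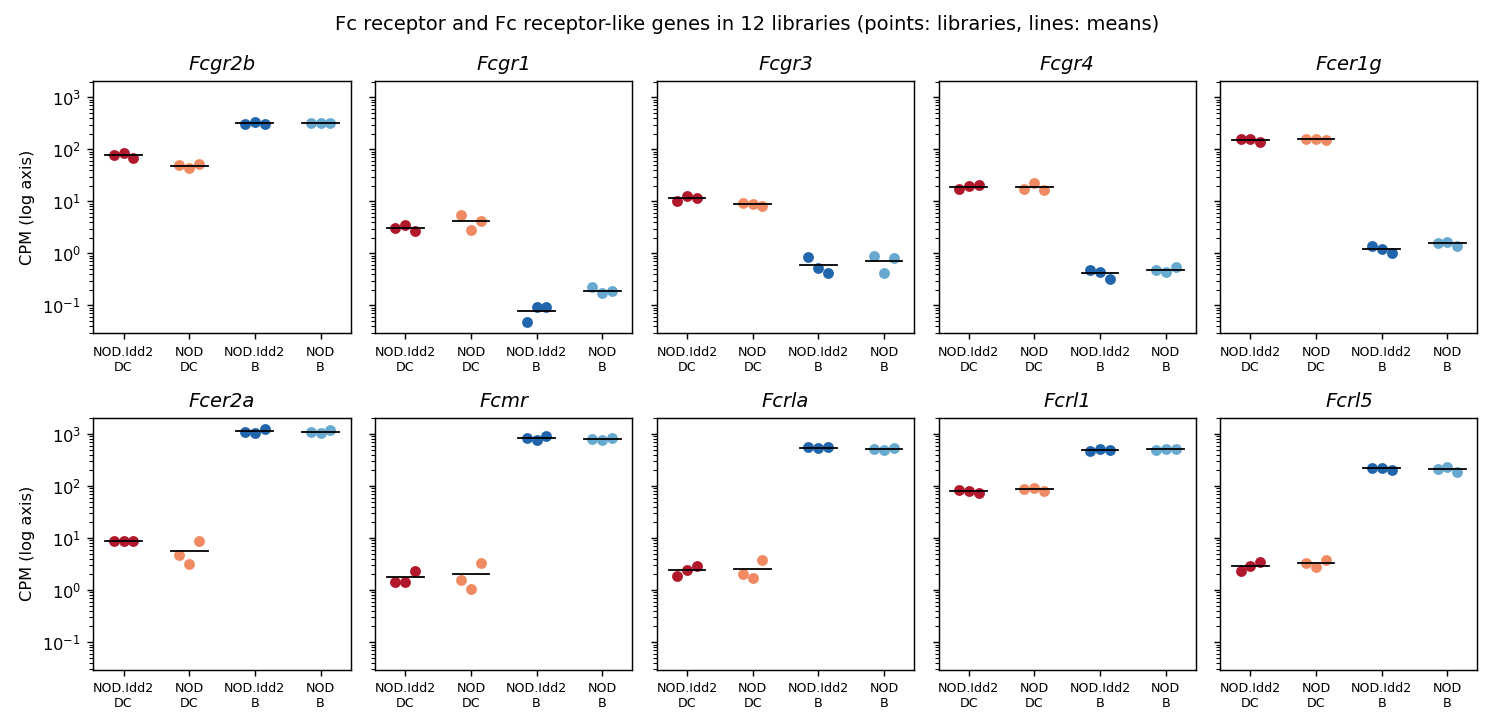
CPM of the 10 genes on a log axis in each of the 12 libraries, with NOD.Idd2 and NOD dendritic cells (DC) on the left of each panel and NOD.Idd2 and NOD B cells (B) on the right. Points are libraries and lines are group means; Fcgr2b is at 69.1 to 84.3 CPM in NOD.Idd2 and 44.1 to 51.8 CPM in NOD dendritic cells.

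Levels of markers of other cells were compared between the same dendritic cell libraries. In bulk samples fewer cells of a type and less RNA per cell cannot be told apart. The 10 macrophage markers summed to 574 to 636 CPM in NOD.Idd2 and 577 to 688 CPM in NOD, and the 8 monocyte markers to 1122 to 1247 and 828 to 1165 CPM, with overlapping groups for both. The monocyte list had 5 of 8 fitted changes above 0 and 1 called gene, Ace, which encodes angiotensin-converting enzyme (log2 0.61, SE 0.11, adjusted p = 0.0176, edgeR) and was at 137 to 150 CPM in NOD.Idd2 and 74.1 to 108 CPM in NOD. The 6 plasma cell markers summed to 346 to 429 CPM in NOD.Idd2 and 312 to 345 CPM in NOD, without overlap, with all 6 fitted changes above 0 and 0 called. Within that list Jchain, the joining chain of secreted IgM and IgA, was at 108, 32.1 and 106 CPM in NOD.Idd2 and 21.6, 44.8 and 51.2 CPM in NOD, with overlap, while Mzb1 and Sdc1 stayed below 2 CPM in all 6 libraries. In 4 further lists the groups overlapped and 0 genes were called, with more fitted changes above 0 than below. Natural killer cell markers summed to 187 to 211 CPM in NOD.Idd2 and 188 to 212 CPM in NOD (6 of 7 above 0, median log2 0.35), and T cell markers to 451 to 492 and 445 to 522 CPM (6 of 7, median 0.22). Plasmacytoid dendritic cell markers summed to 190.4 to 215 and 158 to 195 CPM (3 of 4, median 0.25), and neutrophil markers to 5.96 to 13.5 and 4.36 to 8.65 CPM (4 of 4 tested of 8, median 0.44). B cell markers summed to 29.0 to 36.0 CPM in NOD.Idd2 and 23.1 to 56.3 CPM in NOD (1 of 4 above 0), and mast cell and basophil markers to 651 to 716 and 685 to 819 CPM (0 of 1 tested of 6). Few genes made up most of the natural killer, T and mast cell sums. In the 6 libraries Klrd1 was at 178 to 205 CPM and Kit at 650 to 819 CPM. Cd4 was at 334 to 428 CPM and Cd8a at 77.4 to 91.4 CPM, but Cd3e at 3.20 to 6.20 CPM. The other lists were uneven too. Tcf4 of the plasmacytoid list was at 125 to 171 CPM, and Adgre1 of the macrophage list at 236 to 342 CPM. Irf4 of the plasma cell list was at 143 to 166 CPM. In the monocyte list Ccr2 was at 191 to 376 CPM, but Ly6c2 at 0.424 to 1.01 CPM. The sums therefore cannot be read as amounts of the named cells. The part of RNA from any of the listed cell types in the Fcgr2b result was not tested.

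Among the activating IgG receptors no strain difference passed the test in dendritic cells. Fcgr3, which binds IgG with low affinity, was at 10.2, 12.6 and 11.8 CPM in NOD.Idd2 and 9.32, 8.99 and 8.15 CPM in NOD. The groups did not overlap, but the log2 fold change of 0.39 (SE 0.12) had an adjusted p of 0.171 by edgeR. Fcgr4, a receptor for IgG2 subclasses, was at 17.4, 19.5 and 20.3 CPM in NOD.Idd2 and 17.5, 22.6 and 16.3 CPM in NOD (log2 0.01, SE 0.12, adjusted p = 0.988, edgeR). Fcgr1, the high-affinity IgG receptor, was the lowest of the IgG receptors, at 3.05, 3.54 and 2.68 CPM in NOD.Idd2 and 5.47, 2.78 and 4.12 CPM in NOD (log2 -0.38, SE 0.24, adjusted p = 0.602, edgeR). The groups overlapped for Fcgr4 and for Fcgr1. Fcer1g, the ITAM-bearing chain through which these receptors signal, was at 159, 158 and 136 CPM in NOD.Idd2 and 160, 159 and 151 CPM in NOD, with overlap (log2 -0.04, SE 0.05, adjusted p = 0.841, edgeR).

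In B cells the activating receptors were near the limit of detection. Fcgr3 had 35, 22 and 18 counts in NOD.Idd2 and 39, 17 and 35 in NOD, against 12362 to 14238 counts of Fcgr2b in the 6 libraries. That is 1.33 to 2.83 Fcgr3 counts per 1000 Fcgr2b counts in NOD.Idd2 B cells and 1.26 to 2.74 in NOD B cells, while dendritic cells had 131 to 171 in NOD.Idd2 and 157 to 204 in NOD. The part of reads from the shared sequence in these Fcgr3 counts was not tested. Fcgr4 had 20, 19 and 14 counts in NOD.Idd2 B cells and 21, 18 and 24 in NOD B cells, and the groups overlapped. Fcer1g was at 1.37, 1.20 and 1.01 CPM in NOD.Idd2 and 1.61, 1.66 and 1.40 CPM in NOD B cells, without overlap but short of the threshold (log2 -0.37, SE 0.18, adjusted p = 0.793, edgeR). Beside it, natural killer cell markers summed to 17.4 to 27.7 CPM in NOD.Idd2 and 25.3 to 35.0 CPM in NOD B cells, monocyte markers to 42.8 to 47.2 and 46.6 to 52.6 CPM, and neutrophil markers to 6.05 to 8.67 and 6.48 to 22.7 CPM. Macrophage markers had the higher sum in NOD.Idd2, at 50.6 to 55.4 CPM against 42.7 to 49.5 CPM in NOD B cells, without overlap. Of the 8 macrophage markers tested, 3 had fitted changes above 0 and 5 below. The part of any of these cells in the Fcer1g values was not tested.

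Fcgr1 was left out of the B cell test by the filter on low counts, with 2, 4 and 4 counts in NOD.Idd2 and 10, 7 and 8 in NOD B cells. The groups did not overlap. With the filter lifted its log2 change was -1.26 (SE 0.49, unadjusted p = 0.0292, adjusted p = 0.855, edgeR).

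**Figure D2:**
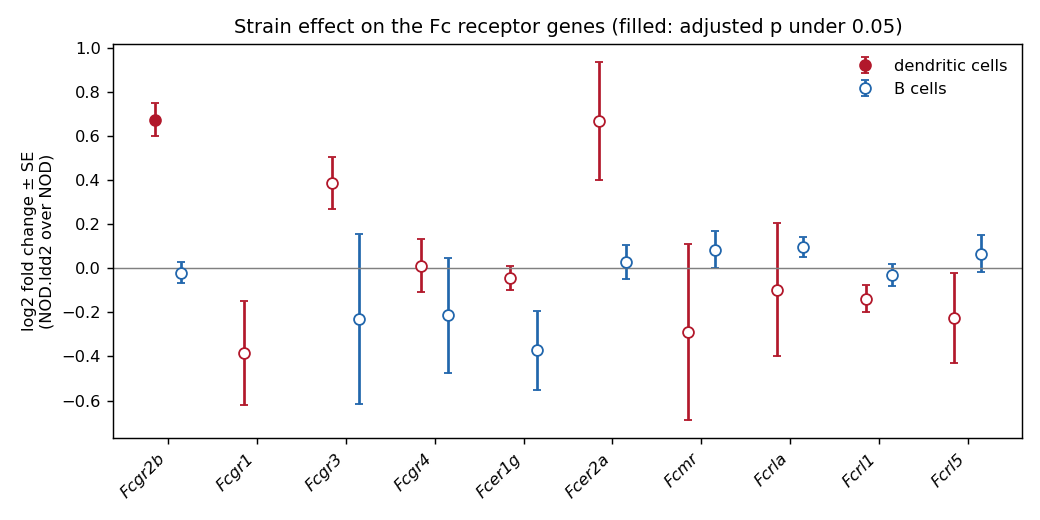
Log2 fold change of NOD.Idd2 over NOD, with its standard error, for each of the 10 genes in dendritic cells and in B cells (edgeR). Filled points passed an adjusted p of 0.05, which Fcgr2b in dendritic cells did at 0.67; Fcgr1 has no B cell point because its counts were below the filter.

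The balance of the inhibitory to the activating IgG receptors was taken in each library as Fcgr2b over the sum of Fcgr1, Fcgr3 and Fcgr4, all in CPM per kb. In dendritic cells the ratio was 0.644, 0.603 and 0.497 in NOD.Idd2 and 0.404, 0.314 and 0.465 in NOD, so every NOD.Idd2 library lay above every NOD library. Fcgr2b made up 36.7% ± 3.11 of the 4 receptors in NOD.Idd2 and 28.1% ± 3.95 in NOD dendritic cells (SD, n = 3 each). The log2 ratio averaged -0.79 ± 0.19 in NOD.Idd2 and -1.36 ± 0.29 in NOD, a difference of 0.57 or 1.48-fold (two-sided exact permutation test, p = 0.1, the smallest that 3 against 3 libraries can give). The summed activating receptors were at 23.0 ± 1.81 CPM per kb in NOD.Idd2 and 21.6 ± 2.49 CPM per kb in NOD, and Fcgr2b at 13.3 ± 1.32 and 8.41 ± 0.703 CPM per kb. With Fcgr3 alone as the activating receptor the log2 difference was 0.28 (exact p = 0.2). Fcgr3 itself had a log2 change of 0.39 in these libraries. The part of reads from the sequence shared with Fcgr2b was not tested.

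B cells held almost no activating receptor RNA, and their balance lay far on the inhibitory side. The ratio was 57.9, 82.9 and 101 in NOD.Idd2 and 57.1, 86.5 and 55.9 in NOD B cells, and Fcgr2b made up 98.7% ± 0.369 and 98.5% ± 0.345 of the 4 receptors. The groups overlapped. The log2 ratio differed by 0.27 between the strains (6.30 ± 0.41 in NOD.Idd2 and 6.03 ± 0.36 in NOD, exact permutation p = 0.5).
Over both cell types the mean strain difference was 0.42 (exact p = 0.045 over 400 assignments of strain within cell type). That p was 0.335 with Fcgr3 alone and 0.065 with lengths of the representative transcripts in place of all exons, and 0.0200 to 0.125 on leaving out each library in turn, passing 0.05 for 3 of 12.
The log2 ratio of dendritic cells minus that of B cells was -7.24 (exact p = 0.005, the smallest that 400 assignments can give), with -7.09 in NOD.Idd2 and -7.39 in NOD. The ratio itself depends on the lengths used: with representative transcripts it was 0.877 in NOD.Idd2 and 0.603 in NOD dendritic cells, and 116 and 96.4 in B cells.

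**Figure D3:**
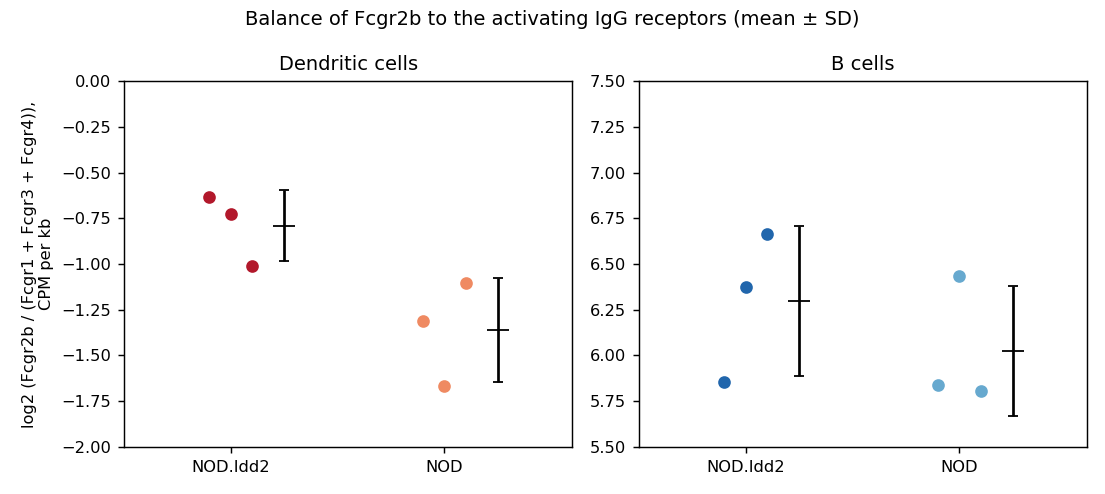
Log2 of Fcgr2b over the sum of Fcgr1, Fcgr3 and Fcgr4 (CPM per kb) in each library, with mean ± SD beside the points, for dendritic cells on the left and B cells on the right. The vertical axes cover different values over the same span; NOD.Idd2 and NOD dendritic cells do not overlap (-1.01 to -0.64 against -1.67 to -1.10), while the B cell groups do.

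All 10 members differed between dendritic cells and B cells in both strains by edgeR, where 76.4% of all genes tested did so in NOD and 75.7% in NOD.Idd2, so that the count says little about these genes. The 4 genes higher in dendritic cells were the activating receptors and their chain, with 36.7% of all genes higher in NOD.Idd2 and 37.7% in NOD. Fcer1g showed the largest rise, 6.98 on the log2 scale in NOD.Idd2 (SE 0.10) and 6.67 in NOD (SE 0.10). The other changes were 5.48 and 5.26 for Fcgr4, 5.23 and 4.40 for Fcgr1, and 4.26 and 3.65 for Fcgr3, each for NOD.Idd2 first and NOD second. The 6 genes lower in dendritic cells fell by different amounts, with 38.9% of all genes lower in NOD.Idd2 and 38.7% in NOD. Fcmr changed most (log2 -9.05 in NOD.Idd2 and -8.62 in NOD), then Fcrla (-7.88 and -7.66), Fcer2a (-7.01 and -7.63) and Fcrl5 (-6.32 and -5.99). Fcgr2b (-2.04 and -2.71) and Fcrl1 (-2.63 and -2.51) changed least.

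By level per kb, the order in dendritic cells began with Fcer1g, at 173 CPM per kb in NOD.Idd2 and 179 in NOD, followed by Fcrl1 at 22.3 and 24.7 and by Fcgr4, whose libraries reached 16.2 and 18.0. Fcgr2b came next and overlapped with Fcgr4 in NOD.Idd2, where the lowest Fcgr4 library was at 13.9 and the highest Fcgr2b library at 14.6, but not in NOD, where Fcgr2b reached 8.95. Fcgr3 followed at 6.65 and 5.08 CPM per kb, and Fcer2a, Fcrla, Fcgr1, Fcmr and Fcrl5 lay at 0.831 to 2.85 CPM per kb, with overlap between most neighbours. In B cells the order was Fcmr, Fcer2a, Fcrla, Fcrl1, Fcrl5 and Fcgr2b in both strains, at 484, 362, 312, 138, 63.1 and 54.4 CPM per kb in NOD.Idd2 and 460, 358, 294, 142, 60.6 and 55.6 CPM per kb in NOD. Only Fcrl5 and Fcgr2b overlapped among these, and only in NOD. Fcer1g, Fcgr3, Fcgr4 and Fcgr1 were at 1.78 CPM per kb or less. This order depends on the lengths used. Fcgr2b has 5790 bases over all exons and 3544 in its representative transcript, while Fcgr4 has 1256 by either. Transcript lengths would therefore raise Fcgr2b relative to Fcgr4, and the order of these genes in dendritic cells is not settled.

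The genes of IgE and IgM receptors did not pass the strain test in either cell type. In B cells Fcer2a was at 1069, 1055 and 1237 CPM in NOD.Idd2 and 1097, 1050.3 and 1170.5 CPM in NOD (log2 0.03, SE 0.08, adjusted p = 0.999, edgeR). Replicate 3 was the highest library of both strains. Fcmr showed the same high replicate 3, at 836, 754 and 929 CPM in NOD.Idd2 and 788, 763 and 844 CPM in NOD (log2 0.08, SE 0.08, adjusted p = 0.934, edgeR).

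Fcer2a in dendritic cells was the member whose strain call depended most on 1 library. It was at 8.74, 8.76 and 8.93 CPM in NOD.Idd2 and 4.78, 3.20 and 8.62 CPM in NOD (log2 0.67, SE 0.27, adjusted p = 0.356, edgeR). The groups did not overlap, by a narrow margin. NOD replicate 3, the high library, also had the most B cell marker RNA, 56.3 CPM against 23.1 and 29.1 CPM in NOD replicates 2 and 1. Without that library the log2 change was 1.14 (SE 0.18, adjusted p = 0.00629, edgeR), and with all 6 libraries but no minimum count it was 0.67 (adjusted p = 0.000331). Fcmr (1.46, 1.44 and 2.34 CPM in NOD.Idd2 and 1.58, 1.04 and 3.38 CPM in NOD) and Fcrla (1.90, 2.47 and 2.90 CPM in NOD.Idd2 and 2.07, 1.70 and 3.77 CPM in NOD) were also highest in NOD replicate 3. The part of B cell RNA in these values was not tested.

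Of the Fc receptor-like genes, Fcrl1 was the one with a substantial level in dendritic cells. It was at 83.6, 80.9 and 74.0 CPM in NOD.Idd2 and 89.6, 92.8 and 81.6 CPM in NOD dendritic cells, and at 467, 504 and 502 CPM in NOD.Idd2 and 484, 517 and 513 CPM in NOD B cells. Its mean in dendritic cells was 16.2% of the B cell mean in NOD.Idd2 and 17.4% in NOD. The corresponding values of the 4 B cell markers were 0.156% to 1.13% in NOD.Idd2 and 0.227% to 1.12% in NOD, and in single dendritic cell libraries no marker exceeded 1.46%. Fcrl5 was at 1.32% and 1.55% of the B cell level, Fcer2a at 0.786% and 0.500%, Fcrla at 0.445% and 0.489%, and Fcmr at 0.208% and 0.251%. Fcgr2b stood with Fcrl1, at 24.5% in NOD.Idd2 and 15.1% in NOD.

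**Figure D4:**
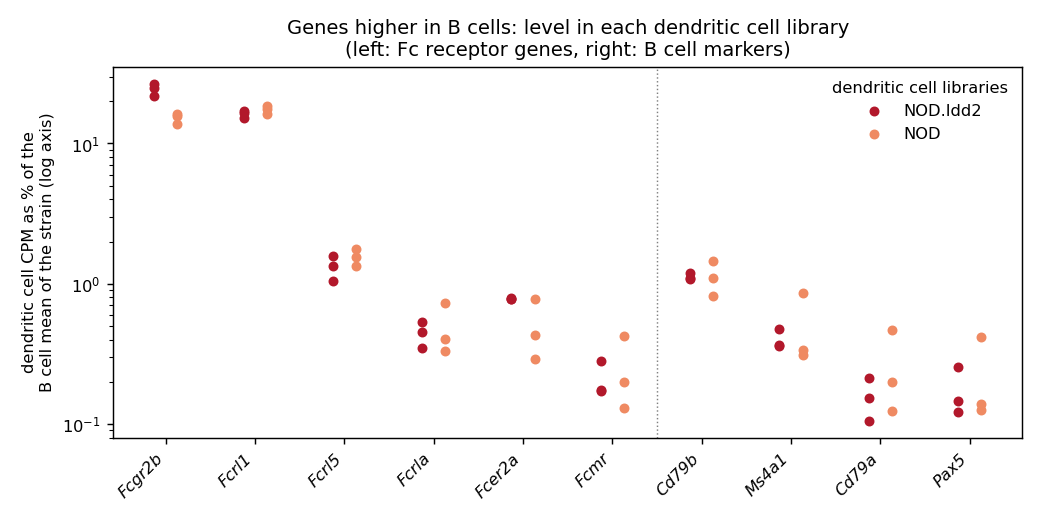
CPM in each dendritic cell library as a percentage of the B cell mean of the same strain, on a log axis, for the 6 Fc receptor genes higher in B cells and for 4 B cell markers. Fcgr2b and Fcrl1 lie at 13.7% to 26.8%, and the markers at 1.46% or less.

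The strains did not differ by the test in Fcrl1, Fcrl5 or Fcrla. The log2 change of Fcrl1 was -0.14 in dendritic cells (SE 0.06, adjusted p = 0.439, edgeR) and -0.03 in B cells (SE 0.05). Fcrl5 was at 2.30, 2.92 and 3.46 CPM in NOD.Idd2 and 3.28, 2.82 and 3.73 CPM in NOD dendritic cells, and at 226, 227 and 205 CPM in NOD.Idd2 and 214, 232 and 187 CPM in NOD B cells (log2 -0.22 and 0.07, adjusted p = 0.758 and 0.955, edgeR). Fcrla in B cells was at 553, 529 and 554 CPM in NOD.Idd2 and 520, 494 and 527 CPM in NOD, without overlap, and the log2 change of 0.10 (SE 0.04) had an adjusted p of 0.793 by edgeR. The annotated gene Gm2962, with 6690 counts in all, overlaps Fcrla on the same strand.

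Promoters of 3 members are shown, the 250 bases before the RefSeq start on GRCm38.p6, for the gene that rose in NOD.Idd2 dendritic cells, for an activating receptor gene higher in dendritic cells and for the B cell gene with a substantial dendritic cell level. Capitals mark GAGGAA on either strand, 1 form of the site bound by PU.1, a transcription factor of myeloid and B cells. The shorter GGAA within it was not searched on its own and also occurs outside the capitals. The bases are those of C57BL/6J and not of NOD or B10. The Fcgr2b window lies inside the GENCODE gene, which reaches 170976547, and the Fcgr3 windows lie inside theirs. Bases before those outer GENCODE starts were not searched.
Fcgr2b, chr1:170976072-170976321, minus strand: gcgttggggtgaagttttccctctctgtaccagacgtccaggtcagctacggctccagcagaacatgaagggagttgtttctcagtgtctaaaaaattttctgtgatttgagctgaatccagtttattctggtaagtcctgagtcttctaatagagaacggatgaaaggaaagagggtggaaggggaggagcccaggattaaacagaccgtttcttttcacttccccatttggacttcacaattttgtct
Fcgr4, chr1:171018676-171018925, plus strand: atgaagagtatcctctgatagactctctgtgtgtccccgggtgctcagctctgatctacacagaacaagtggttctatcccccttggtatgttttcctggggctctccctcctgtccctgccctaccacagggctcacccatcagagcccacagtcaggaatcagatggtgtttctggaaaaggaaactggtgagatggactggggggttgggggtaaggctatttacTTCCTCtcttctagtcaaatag
Fcrl1, chr3:87376137-87376386, plus strand: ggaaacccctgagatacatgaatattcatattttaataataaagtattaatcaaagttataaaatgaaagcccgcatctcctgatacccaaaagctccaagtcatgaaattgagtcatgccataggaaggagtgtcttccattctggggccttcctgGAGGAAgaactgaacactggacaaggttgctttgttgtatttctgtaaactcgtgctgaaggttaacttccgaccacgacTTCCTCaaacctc
GAGGAA occurs 2 times in the Fcrl1 window, 1 time in that of Fcgr4 and 0 times in that of Fcgr2b, and 23.3% of 32851 promoters hold it. It also occurs before the starts of Fcgr1, Fcgr3, Fcmr and Fcrla, and so on both sides of the division between genes higher in dendritic cells and genes higher in B cells. Of the other motifs searched on both strands, CCCNNGGG (11.8% of promoters) was found for Fcgr3, TGACTCA (4.46%) for Fcrl1 and for 1 of 3 Fcer2a starts, and ATGCAAAT (1.60%) for none of the 10 genes. None of these motifs contains another, and a match is a description of the letters only.

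The members on chromosome 1 allow the Fcgr2b result to be set beside its neighbours. Dusp12, a phosphatase gene before the cluster, had a log2 change of -0.04 in dendritic cells (SE 0.08), and Sdhc and Tomm40l, which lie between Fcgr3 and Fcer1g and encode mitochondrial proteins, changed by 0.09 (SE 0.06) and -0.03 (SE 0.08). B4galt3 and Ppox beyond Fcer1g changed by -0.16 (SE 0.07) and -0.10 (SE 0.07). The low genes Gm9929 and Cfap126, at 0.597 and 0.342 CPM in NOD.Idd2 and 0.949 and 0.711 CPM in NOD dendritic cells, had log2 values of -0.61 (SE 0.46) and -0.83 (SE 0.47). None of these 7 genes passed in dendritic cells (adjusted p 0.449 to 0.945, edgeR) or in B cells (0.918 to 0.999).

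**Figure D5:**
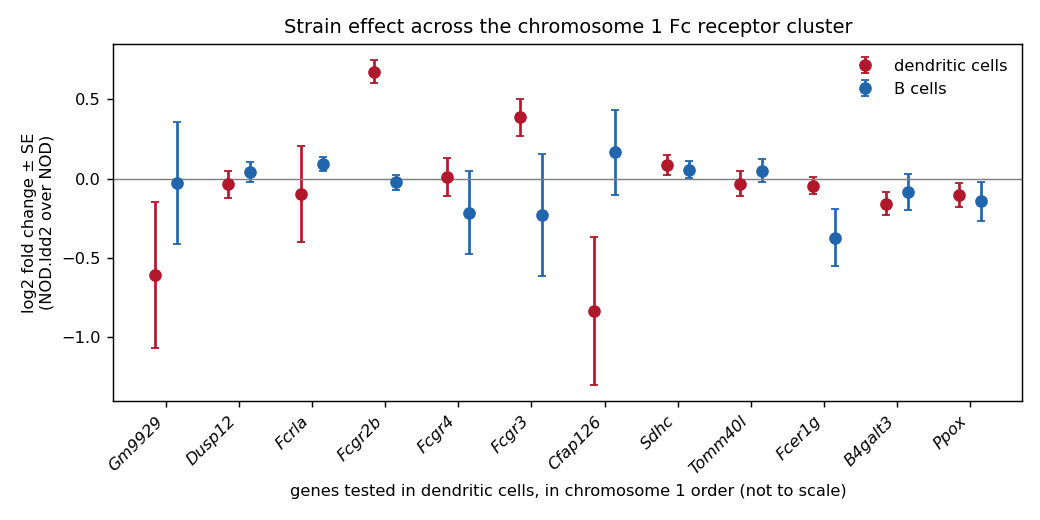
Log2 fold change of NOD.Idd2 over NOD with its standard error (edgeR), for dendritic cells and B cells, for genes in and beside the chromosome 1 Fc receptor cluster, in chromosome order and not to scale. Fcgr2b in dendritic cells, at 0.67, is the one called value among those plotted.

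The genes around Fc receptor signalling were described from 4 lists of 67 genes. Of all genes tested, 1.29% were called in dendritic cells and 0.16% in B cells. Counts of 0 or 1 called gene in lists this short therefore say little about a list as a whole. Among 10 further Fc receptors and immunoglobulin-binding proteins, 5 were tested in dendritic cells and 1 was called, as higher. That gene was Pigr, the polymeric immunoglobulin receptor that carries IgA and IgM across epithelia, at 4.95, 5.50 and 6.03 CPM in NOD.Idd2 and 1.90, 1.50 and 2.35 CPM in NOD (log2 1.50, SE 0.20, adjusted p = 0.00274, edgeR). Of 7 tested in B cells 0 were called, and Pigr was at 4.93 ± 0.703 CPM in NOD.Idd2 and 4.67 ± 0.794 CPM in NOD (SD, n = 3 each).

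Activating ITAM signalling genes showed no called change with the filter on low counts. All 27 were tested in both cell types and 0 were called, with a median log2 change of -0.04 in dendritic cells and 0.02 in B cells, beside 0.00 and 0.01 over all genes tested. Syk, the kinase that binds the ITAM, changed by -0.01 in dendritic cells (SE 0.08), and Tyrobp, another ITAM adaptor, by 0.01 (SE 0.05).
Among 20 genes of inhibitory ITIM signalling, all tested, 1 was called in dendritic cells and 0 in B cells. Cd72, an ITIM receptor known from B cells, was at 67.6, 75.0 and 66.1 CPM in NOD.Idd2 and 93.7, 96.2 and 94.4 CPM in NOD dendritic cells, without overlap (log2 -0.44, SE 0.05, adjusted p = 0.00130, edgeR). In B cells it was at 379 ± 8.78 CPM in NOD.Idd2 and 363 ± 14.8 CPM in NOD (log2 0.07, SE 0.05, adjusted p = 0.862). The strain effect on Cd72 differed between the cell types (log2 -0.53, SE 0.06, adjusted p = 0.00574, edgeR). Cell type and sex cannot be told apart here either. Inpp5d, which encodes the SHIP1 phosphatase used by Fcgr2b, changed by -0.02 in dendritic cells (SE 0.05) and 0.01 in B cells, and the list's median was -0.07 in dendritic cells and -0.03 in B cells. Of 10 receptors for complement and immune complexes, 8 were tested in dendritic cells and 7 in B cells, and 0 were called in either.

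Across the 12 libraries, the genes whose log2 CPM followed Fcgr2b most closely were Tedc1, Ankrd33b, Nln, Pus7 and Gmfb, with Pearson's r of 0.994 to 0.996 as a description over libraries that fall into 2 cell types. A further 2 genes in that range had provisional symbols. Like Fcgr2b, all 5 were higher in B cells and had a higher mean in NOD.Idd2 than in NOD dendritic cells: Ankrd33b was at 31.2 ± 0.531 CPM in NOD.Idd2 and 24.0 ± 1.70 CPM in NOD dendritic cells, and at 97.6 ± 4.11 and 104 ± 4.78 CPM in B cells (SD, n = 3 each). The 5 genes were picked for likeness to Fcgr2b over these same libraries, so this shared pattern follows from the choice and is no separate evidence.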

How the data were processed

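The authors deposited raw counts, whole numbers per gene symbol, which were used for every value; their normalized table, the same counts divided by a factor per library, was not used. Per the submitters' processing notes, STAR (version written as 0.12.2) and GRCm38 were used; the sources used here do not give the counting tool, the annotation or the use of strand. The members and gene lists were chosen with earlier results of these data known. Genes were kept by filterByExpr (minimum count 10, minimum total 15) and tested with edgeR 4.0.16 under R 4.3.3, TMM scaling and glmQLFTest, NOD.Idd2 against NOD within each cell type (6 libraries), and with contrasts over all 12 libraries for the other comparisons. The called threshold was an adjusted p of 0.05, over all genes tested. SE is the log2 change divided by the root of F. Lengths and neighbours came from GENCODE on GRCm38, promoters from RefSeq (GRCm38.p6), alignments from Biopython 1.88. All 10 members were named, as were called list genes, cluster neighbours and the 5 genes most like Fcgr2b. Same-numbered B cell libraries deviated together (r 0.520, 0.328 and 0.754), so the block was fitted as an alternative. Differently numbered replicates 1 and 2 did so too (r 0.397 and 0.356), and replicate 3 of each strain lay apart from them (chi-square per gene 41.2 to 47.1, against 8.48 in NOD.Idd2 and 7.93 in NOD between replicates 1 and 2), so the numbers separate replicate 3 rather than 3 pairs; in dendritic cells r was 0.0129, 0.0177 and 0.0616. Other alternatives were DESeq2 1.42.0, limma-voom (limma 3.58.1), RLE factors, 2 filters, a fit of all libraries and leaving out each library; transcript lengths and Fcer1g as denominator were chosen after seeing the data. Results of some marker and neighbour genes are not reported here. Tests were tested on simulated data.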

Additional observations from a re-analysis of the deposited data

Results flagged for a closer look

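Fcgr2b is listed because its strain effect differed between cell types: the log2 change of NOD.Idd2 over NOD was 0.67 larger in dendritic cells than in B cells (edgeR interaction, adjusted p = 0.0232). Cd72 is listed for the same reason in the other direction, with a difference of -0.53 (adjusted p = 0.00574), a call kept whichever of the 12 libraries was left out (adjusted p 0.00759 to 0.0496). For both genes, cell type and sex cannot be told apart in this difference. Groups of 3 libraries are too small for a test of single outlying samples.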

How the results depend on the processing

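All 10 members were called between dendritic cells and B cells in both strains under each alternative run. In dendritic cells the strain call of Fcgr2b held under each alternative, and the count of called members was 2 with no filter on low counts and 1 to 2 on leaving out a library, Fcer2a being the second. Called list genes there numbered 7 with no filter, adding Cd300a, Cr2, Itgam, Lair1 and Prkcd, and 2 to 5 on leaving out a library. Without NOD replicate 1 there were 4, adding Cr2 and Lilrb4a. Without NOD replicate 3 there were 5, adding Cd300a, Cd5 and Lair1. All these added genes were named after their values were seen. For the difference between cell types 0 to 1 members were called on leaving out a library. The balance difference in dendritic cells was 0.28 with Fcgr3 alone; over both cell types it was 0.24 with Fcgr3 alone (exact p = 0.335), 0.41 with transcript lengths (p = 0.065) and 0.33 to 0.53 on leaving out a library. Values that changed sign, not all of them near 0, were not called in either form. On leaving out a library the log2 range in B cells was -0.059 to 0.0085 for Fcgr2b, -0.053 to 0.073 for Fcer2a, -0.00036 to 0.16 for Fcmr, -0.069 to 0.0064 for Fcrl1, -0.012 to 0.13 for Fcrl5 and -0.046 to 0.21 for Pigr. In dendritic cells it was -0.09 to 0.16 for Fcgr4, -0.61 to 0.31 for Fcmr and -0.32 to 0.31 for Fcrla (0.040 with the replicate block), and for the difference between cell types -0.74 to 0.19 for Fcmr and -0.44 to 0.19 for Fcrla. The replicate block changed no call of a member; Pigr passed for the difference between cell types with it (log2 1.44, adjusted p = 0.0318, against 0.116 without it), with DESeq2 (0.00176) and with no filter (0.0378). Over all genes the 24 calls in B cells became 156 with the block, 122 with DESeq2, 42 in the fit of all libraries and 13 to 18 on leaving out a library. The 186 in dendritic cells became 700 with no filter, 296 with DESeq2, 94 in the fit of all libraries and 63 to 332 on leaving out a library, and the 18 for the difference became 114 with DESeq2, 56 with the block, 33 with no filter and 7 to 19. The cause of these changes was not tested. Fcgr1, Fcgr3 and Fcgr4 had 2 to 39 counts per library in B cells, although these were the deepest libraries, so their strain differences there are imprecise.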

Other observations

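Of the summed activating receptors in CPM per kb, Fcgr4 made up 66.0% ± 1.59 in NOD.Idd2 and 68.9% ± 4.73 in NOD dendritic cells, Fcgr3 28.9% ± 1.11 and 23.6% ± 1.95, and Fcgr1 5.20% ± 0.773 and 7.51% ± 2.79 (SD, n = 3 each). In B cells, at the low counts given above, Fcgr4 made up 47.7% ± 4.21 in NOD.Idd2 and 45.8% ± 7.31 in NOD, and Fcgr3 47.6% ± 6.20 and 45.4% ± 8.06. Fcer1g was 7.56 ± 1.09 times the summed activating receptors in NOD.Idd2 and 8.35 ± 0.737 times in NOD dendritic cells, and 1.97 ± 0.223 and 2.14 ± 0.670 times in B cells.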
